A study of Rattus norvegicus with 24 samples.

Results

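Liver gene expression was compared between rats fed low copper and rats fed adequate copper, both at 30% sucrose. The rats were chosen by diet label alone, which gave 12 of the 24 rats of the study, 6 per diet, each with 1 one-colour Agilent array. All were male Wistar rats that lived singly on a standard pellet diet until the age of 6 months. They then ate a purified diet of the AIN76A type for 12 weeks, and the age listed for the samples is 9 months. The low copper diet held less than 0.3 mg/kg copper, and the adequate diet held 125 mg/kg, which the sample labels call high. Both diets held 30% sucrose, with starch and dextrin to balance the carbohydrate. The other 12 rats ate either copper level at 10% sucrose, 6 per diet, and the adequate one of these was the control diet of the study, which modelled fatty liver disease without alcohol. The comparison asks which liver transcripts differ with copper supply when sucrose is high. Copper or fat content of the livers was not analysed here.

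Copper enters cells through the importer Slc31a1, and chaperones pass it to copper enzymes such as cytochrome c oxidase and superoxide dismutase Sod1. The liver loads copper into ceruloplasmin, encoded by Cp, and sends any excess into bile, both by means of the pump Atp7b. Metallothioneins are small cysteine-rich proteins that bind zinc and copper, and their genes are known to respond to metals through metal response elements, and also to glucocorticoids and inflammatory signals. Sucrose yields glucose and fructose, and the liver handles fructose through ketohexokinase, encoded by Khk, and passes its carbon to glycolysis, glycogen and fatty acid synthesis.

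The upstream sequences of 4 genes that the results turn on are shown first, because each holds letters of an element for which its gene is known. They are the 250 bases before the start site in RefSeq, build GRCr8, written 5' to 3' on the strand of the gene. Both metallothionein genes lie close together on chromosome 19, minus strand, with upstream windows at chr19:10832976-10833225 for Mt1 (Mt1a on the array) and chr19:10838709-10838958 for Mt2A. The Igfbp1 window is chr14:86261027-86261276, plus strand, and the Cxcl1 window is chr14:17479322-17479571, minus strand. Capitals mark matches on either strand: TGCACNC or TGCGCNC (metal response element core) in Mt1 and Mt2A, CAAAACA (core of an insulin response element) in Igfbp1, and the NF-kappaB motif in Cxcl1.
Mt1: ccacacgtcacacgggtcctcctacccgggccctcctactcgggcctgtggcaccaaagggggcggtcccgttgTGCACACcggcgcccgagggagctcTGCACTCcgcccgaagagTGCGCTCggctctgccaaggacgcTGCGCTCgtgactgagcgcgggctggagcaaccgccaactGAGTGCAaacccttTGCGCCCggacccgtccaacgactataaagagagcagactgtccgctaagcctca
Mt2A: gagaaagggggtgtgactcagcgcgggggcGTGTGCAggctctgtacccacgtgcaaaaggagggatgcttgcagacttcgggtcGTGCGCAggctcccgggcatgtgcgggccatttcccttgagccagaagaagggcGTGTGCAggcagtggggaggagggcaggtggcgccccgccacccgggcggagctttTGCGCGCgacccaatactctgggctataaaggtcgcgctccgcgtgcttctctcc
Igfbp1: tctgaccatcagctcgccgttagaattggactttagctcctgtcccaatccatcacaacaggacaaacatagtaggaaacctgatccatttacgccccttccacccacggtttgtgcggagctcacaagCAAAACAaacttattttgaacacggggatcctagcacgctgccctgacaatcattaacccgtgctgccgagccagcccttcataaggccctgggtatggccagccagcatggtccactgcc
Cxcl1: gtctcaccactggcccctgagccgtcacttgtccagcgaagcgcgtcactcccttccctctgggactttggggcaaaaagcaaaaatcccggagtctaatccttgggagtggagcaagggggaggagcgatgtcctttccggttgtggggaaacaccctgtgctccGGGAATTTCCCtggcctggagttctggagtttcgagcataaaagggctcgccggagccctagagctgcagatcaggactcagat
The Mt1 window held 6 matches and the Mt2A window 4, while the Igfbp1 window held 1 and the Cxcl1 window 2 that overlap in 1 stretch. Among 33469 RefSeq windows of the same length, 20.6% held at least 1 metal response element core and 1.17% held 3 or more, 5.46% held CAAAACA and 6.33% held the NF-kappaB motif. Other windows were searched as well. For the metal response element core, that of the zinc importer gene Slc39a5 had 0 matches and that of Slc30a1 had 2. For the NF-kappaB motif, that of Nfkbia had 1 match and that of Il1b 0. These matches are descriptions of letters, and binding was not measured.

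Each level is the log2 of the signal relative to the array's own 75th percentile, and differences are given as low minus adequate copper on that log2 scale, so that a negative difference means lower in low copper. The error of a difference is the standard error (SE) of a limma fit of all 24 arrays. For each diet the lowest, median and highest of the 6 rats are given. All 6 low copper rats and adequate copper rats 1 and 2 lay on slide 1, whereas adequate copper rats 3 to 6 lay on slide 2 with 4 rats of another diet. The difference within slide 1, 6 rats against 2, is therefore given for single genes beside the difference over all 12 wherever it turned sign or moved by over 1.5 times, and for some genes where it did not. Comparisons against the slide 2 rats use the same 6 low copper rats of slide 1. On that slide the 2 adequate copper rats shared row 1 and the low copper rats filled rows 2 to 4, so row and diet cannot be told apart there. That percentile ranged from 433 to 1284 over the 24 arrays and the local background from 38 to 48, and the number of rats limits the precision. All 24 hepatocyte markers tested were well above background in all 12 rats, and their mean level was 4.69 to 5.01 in low copper and 4.64 to 5.10 in adequate copper.

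With a Benjamini-Hochberg adjusted p under 0.05 in limma, 0 of 18641 genes (0.0%) were called in either direction, and the smallest adjusted p was 0.261. At an unadjusted p under 0.05, 620 genes were higher in low copper (3.33%) and 1219 were lower (6.54%), 1839 in all (9.87%), where 5% of the genes would be 932. Of all genes, 43.0% had a difference above 0 and 57.0% below, and the median difference was -0.04. That median was -0.09 within slide 1 and -0.01 against the adequate copper rats of slide 2. The counts given below for gene lists are to be read beside these shares, and list medians beside the median of all genes in the same rats. The genes that were lower at unadjusted p were mostly dim, with a median level of -3.56, whereas those that were higher had a median level of -0.16 and all genes -1.66. The 1839 genes became 982 without low copper rat 6 and 1101 without adequate copper rat 5. They became 2341 without adequate copper rat 2 and 2233 without low copper rat 1. The called count stayed at 0 in each case. No gene described below passed the adjusted threshold in this fit, so the values are given as measured differences and not as changes.

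Mt1a, the metallothionein gene now named Mt1 (probe on rn4 chr19:11261631-11261690, minus strand), stood at 3.80, 4.58 and 5.01 in low copper and at 5.02, 5.50 and 8.25 in adequate copper. The diets did not overlap, and adequate copper rat 5 lay far above the other 11 rats. The difference was -1.34 (SE 0.43), or 2.54-fold lower in low copper, with a limma adjusted p of 0.463. It was -0.94 within slide 1 and -0.87 without adequate copper rat 5. Only 0.499% of all genes were lower in all 6 low copper rats than in every adequate copper rat, and 0.22% were higher.

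Mt2A, the second metallothionein gene (probe on rn4 chr19:11267834-11267893, minus strand), lay at 2.27, 2.45 and 2.63 in low copper, a narrow range, and at 2.76, 3.53 and 7.18 in adequate copper. Again no low copper rat reached the lowest adequate copper rat, and rat 5 was highest. Its difference was -1.53 (SE 0.54), 2.90-fold lower, and 1 other probe of the gene had the same sign. Within slide 1 it was -0.54, against -2.03 with the adequate copper rats of slide 2, and it was -0.89 without rat 5. The windows shown above held several metal response element cores for both genes. Slc39a5, whose window held 0, was also lower in every low copper rat, as given next. A link between these letters and the levels was not tested.

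Slc39a5, a zinc importer of the ZIP family (probe on rn4 chr7:1687706-1687765, minus strand), stood at -3.90, -3.27 and -3.21 in low copper and at -3.07, -2.89 and -2.49 in adequate copper. It too did not overlap, with a difference of -0.53 (SE 0.14) and -0.59 within slide 1. Slc30a4, a zinc exporter, had a difference of 0.44 (SE 0.18) in the other direction, which was 0.28 without low copper rat 6. In the list of metallothionein and zinc genes 23 of 25 were tested, and 13 lay above 0 and 10 below. The median of the list was 0.06, against -0.04 for all genes, and within slide 1 it was 0.01 against -0.09. The 3 that did not overlap were the 3 lower genes just described. The mean level of the list was -1.04 to -0.76 in low copper and -1.01 to -0.61 in adequate copper.

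**Figure D1:**
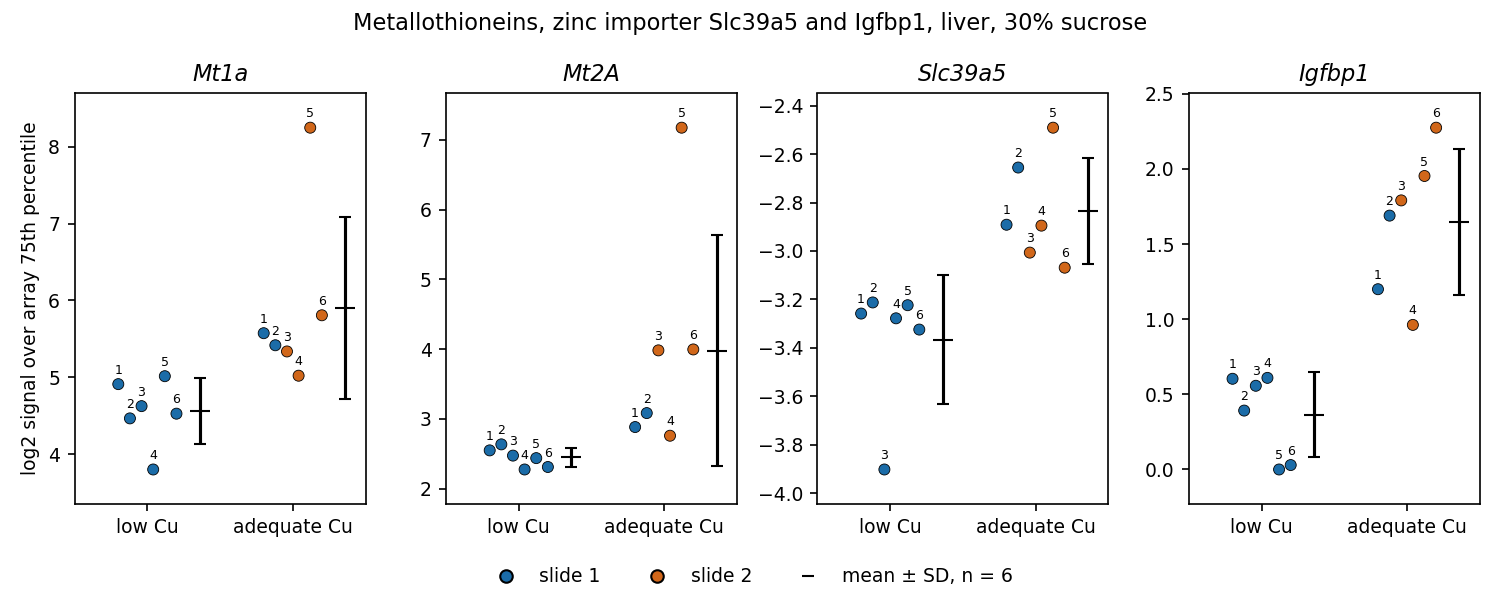
Log2 signal over the array 75th percentile of Mt1a, Mt2A, Slc39a5 and Igfbp1 in each rat (numbered points, coloured by slide), with mean ± SD of the 6 rats of each diet beside them. All 6 low copper rats lie below all 6 adequate copper rats in each panel, and adequate copper rat 5 is highest for Mt1a at 8.25 and for Mt2A at 7.18.

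The machinery that moves and uses copper itself showed small differences. The importer gene Slc31a1 stood at -2.36, -2.08 and -1.78 in low copper and at -2.29, -2.07 and -1.93 in adequate copper, with a difference of 0.02 (SE 0.13). For the pumps, Atp7b differed by 0.04 (SE 0.11) and Atp7a by -0.10 (SE 0.26), which was 0.32 within slide 1. Ccs, the chaperone that loads Sod1, differed by 0.09 (SE 0.12), and Sod1 itself by -0.03 (SE 0.11), which was -0.24 within slide 1. The ranges of the diets overlapped for all 5, and their signs turned under some settings. Within slide 1 it was -0.01 for Slc31a1, -0.05 for Atp7b and -0.03 for Ccs. The 95% interval of the difference ran from -0.25 to 0.30 for Slc31a1 and from -0.18 to 0.27 for Atp7b.

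Cp, the gene of the copper-carrying plasma protein ceruloplasmin, lay at 6.66, 7.04 and 7.28 in low copper and at 6.99, 7.27 and 8.50 in adequate copper. The difference of -0.44 (SE 0.27) became -0.10 within slide 1 and -0.22 without adequate copper rat 5, and -0.21 as the mean of its probes. Steap3, a metalloreductase, differed by -0.49 (SE 0.23) and the cytochrome oxidase assembly gene Cox11 by 0.35 (SE 0.12), which was 0.05 with normexp background correction. Among 19 genes of copper transport and chaperones, 14 lay above 0, with a median of 0.03 that was -0.03 within slide 1.

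Lox, the copper enzyme lysyl oxidase that crosslinks collagen, stood at -4.75, -3.71 and -2.67 in low copper and at -6.66, -5.03 and -3.82 in adequate copper. It was well above background in all 6 low copper rats and in 3 of the adequate copper rats, the ranges overlapped, and the difference was 1.40 (SE 0.80), or 0.38 with normexp. The 15 copper enzymes tested had a median of 0.03, with 8 above 0 and 7 below, and with normexp background correction the median turned to -0.057. Of 17 cytochrome oxidase subunits 12 lay above 0, with a median of 0.08 that was -0.09 within slide 1. Cox5a was the one subunit gene without overlap, by a narrow margin, at 4.97 to 5.22 in low copper and 4.46 to 4.97 in adequate copper, a difference of 0.24 (SE 0.10) and 0.13 within slide 1.

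Iron genes were examined because copper oxidases move iron. Hamp, the gene of the iron hormone hepcidin, stood at 5.35, 6.57 and 7.30 in low copper and at 6.46, 7.10 and 7.65 in adequate copper, a difference of -0.60 (SE 0.28), -0.69 within slide 1 and -0.37 without low copper rat 6. Tfrc, the transferrin receptor, differed by -0.53 (SE 0.19) but by -0.15 within slide 1. Cpox, an enzyme of heme synthesis, was higher in every low copper rat, at -0.83 to -0.47 against -1.13 to -0.92, with a difference of 0.35 (SE 0.15). Over the 29 iron and heme genes the split was even, 15 above 0 and 14 below, and the median was 0.01, or -0.0038 with normexp.

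Carbohydrate genes were more often higher in low copper, mainly against the adequate copper rats of slide 2. Ugp2, which makes the UDP-glucose used for glycogen, stood at 4.09, 4.47 and 4.96 in low copper and at 3.34, 3.78 and 4.14 in adequate copper. The diets overlapped only narrowly, and the difference was 0.76 (SE 0.21), 1.69-fold higher, with 0.40 within slide 1. Gys2, the liver glycogen synthase, differed by 0.37 (SE 0.12), and Ugdh, which oxidises UDP-glucose, by 0.61 (SE 0.16) with no overlap, at 1.24 to 1.73 against 0.55 to 1.16. Within slide 1 these were 0.23 and 0.31.

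Slc2a5, the fructose transporter, lay at 0.64, 1.16 and 1.61 in low copper and at -0.57, 0.00 and 1.46 in adequate copper. Adequate copper rats 1 and 4 lay within the low copper range and the other 4 below it. The difference of 0.91 (SE 0.29) was 0.48 within slide 1 and 1.12 against slide 2. Pklr, the liver pyruvate kinase and a known carbohydrate-responsive gene, stood at 4.14, 4.44 and 4.81 in low copper and at 2.90, 3.81 and 4.42 in adequate copper, a difference of 0.71 (SE 0.23) that was 0.23 within slide 1. Khk, which phosphorylates fructose, differed by 0.19 (SE 0.13) and by -0.12 within slide 1.

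Of the 31 genes of fructose metabolism, glycolysis and gluconeogenesis, 23 lay above 0 and 8 below, and 8 were higher at unadjusted p under 0.05 against 3.33% of all genes. Their median was 0.14. It was -0.06 within slide 1, where that of all genes was -0.09, and 0.28 against slide 2. The sign of the median thus rested on the slide 2 rats. The mean level of the list was 2.43 to 2.53 in low copper and 2.10 to 2.48 in adequate copper. The part of slide in this result was not tested beyond these values.

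The median of the fatty acid synthesis genes was also smaller within slide 1. The mean level of the list there was 1.80 in adequate copper rat 1 and 1.30 in rat 2. In the adequate copper rats of slide 2 it was 0.86 to 1.37, with rat 5 lowest. The parts of slide and of single rats were not tested. Srebf1, which encodes a main transcription factor of lipid synthesis, differed by 0.41 (SE 0.20), Acly by 0.74 (SE 0.37) and Mid1ip1, a partner of acetyl-CoA carboxylase, by 0.45 (SE 0.17). Within slide 1 the 3 values were 0.09, 0.06 and 0.38. Fasn, the fatty acid synthase, stood at 4.25, 5.42 and 6.07 in low copper and at 3.47, 4.38 and 6.46 in adequate copper, with adequate copper rat 1 the highest of all 12. Its difference was 0.75 (SE 0.51), 0.12 within slide 1 and 1.14 without that rat. Scd1, the stearoyl-CoA desaturase now named Scd, differed by 0.40 (SE 0.35), by -0.26 within slide 1, by 0.65 without adequate copper rat 1 and by 0.04 without rat 5. Of the 25 genes of the list, 18 lay above 0, and the median of 0.24 was 0.01 within slide 1 and 0.14 without adequate copper rat 5.

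Cholesterol synthesis genes leaned the other way, against the adequate copper rats of either slide, both set against the same 6 low copper rats. Sqle, squalene epoxidase (probe on rn4 chr7:96111693-96111752, plus strand), lay at -0.25, 0.16 and 1.15 in low copper and at 0.65, 1.66 and 2.38 in adequate copper. Adequate copper rat 1 fell inside the low copper range and the other 5 lay above it. The difference was -1.28 (SE 0.40), 2.43-fold lower, with -0.70 within slide 1. Idi1 differed by -0.77 (SE 0.27) and by -0.41 within slide 1, Mvk by -0.42 (SE 0.16), and Srebf2, the transcription factor of the pathway, by -0.34 (SE 0.13).

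Of the 27 cholesterol synthesis genes 23 lay below 0 and 7 were lower at unadjusted p under 0.05, beside 57.0% and 6.54% of all genes. The median was -0.24 over all 12 rats, -0.30 within slide 1, -0.18 against slide 2 and -0.22 without adequate copper rat 5. The mean level of the list was 1.46 to 1.86 in low copper and 1.73 to 1.99 in adequate copper, so the diets overlapped.

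**Figure D2:**
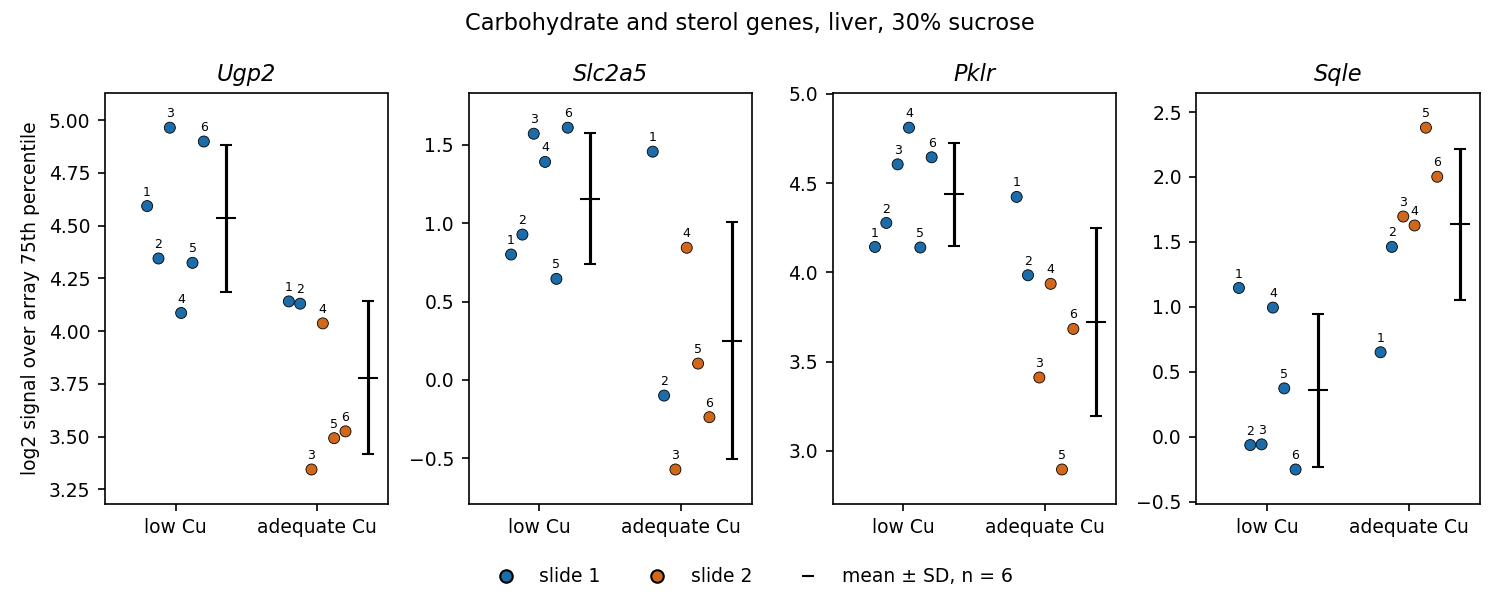
Log2 signal over the array 75th percentile of Ugp2, Slc2a5, Pklr and Sqle in each rat (numbered points, coloured by slide), with mean ± SD of the 6 rats of each diet beside them. Adequate copper rat 1, on slide 1, sits among the low copper rats for Slc2a5 at 1.46, for Pklr at 4.42 and for Sqle at 0.65.

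Other lipid genes differed less. The 36 genes of fatty acid oxidation and PPAR alpha had a median of 0.08, or -0.01 without adequate copper rat 5, with 0 at unadjusted p under 0.05, and Acot12, a cytosolic acetyl-CoA thioesterase, differed by 0.30 (SE 0.15). The 21 lipid droplet genes had a median of 0.05, the 27 lipoprotein genes -0.05, which turned to 0.03 with quantile scaling, and the 20 bile acid genes 0.13. Within slide 1 these were -0.02, -0.18 and 0.08. Apof, an apolipoprotein, differed by 0.47 (SE 0.18) and Scarb1, the HDL receptor, by -0.31 (SE 0.15), which was -0.19 within slide 1.

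Drug metabolism and antioxidant genes were mostly above 0. Of 28 cytochrome P450 genes 22 lay above 0, with a median of 0.22 that was 0.04 within slide 1. Cyp3a9 differed by 0.76 (SE 0.30) and by 0.97 within slide 1, whereas Cyp2c11, a male-predominant P450, differed by 0.49 (SE 0.22), by -0.05 there and by 0.29 without adequate copper rat 5. Of the 28 oxidative stress and Nrf2 target genes 21 lay above 0, beside 43.0% of all genes. At unadjusted p under 0.05, 8 were higher, beside 3.33% of all genes. The median of the list was 0.19, with 0.04 within slide 1. Akr7a3, an aldehyde reductase, stood at 4.08, 4.85 and 5.32 in low copper and at 1.73, 3.87 and 5.04 in adequate copper, a difference of 1.04 (SE 0.42), which was 0.31 within slide 1 and 0.64 without adequate copper rat 5. For Gsta2, a glutathione transferase, the difference was 0.82 (SE 0.33) over all rats and -0.13 within slide 1, and for Txnrd1 and Prdx1, of the thioredoxin system, it was 0.40 (SE 0.16) and 0.35 (SE 0.14), or 0.22 and 0.14 within slide 1.

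Amino acid breakdown genes lay above 0 in 32 of 41 cases, 8 of them at unadjusted p under 0.05. Over all genes the shares were 43.0% and 3.33%. The median of the list was 0.14, with 0.01 within slide 1. Gls2, the liver glutaminase, stood at 5.05, 5.30 and 5.34 in low copper and at 4.67, 4.97 and 5.25 in adequate copper, a difference of 0.30 (SE 0.10) and 0.32 within slide 1. Slc25a13, the mitochondrial aspartate carrier citrin, differed by 0.35 (SE 0.11), Hao1, a peroxisomal glycolate oxidase, by 0.53 (SE 0.18), and Nags, which makes the activator of the urea cycle, by 0.38 (SE 0.14). Within slide 1 these 3 differed by 0.22, 0.24 and 0.27.

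Igfbp1, which encodes an IGF-binding protein that insulin is known to repress (probe on rn4 chr14:87954736-87954795, plus strand), stood at -0.00072, 0.47 and 0.61 in low copper and at 0.96, 1.74 and 2.27 in adequate copper. No low copper rat reached the lowest adequate copper rat, on slide 1 or slide 2. Its difference was -1.28 (SE 0.35), 2.43-fold lower, with a limma adjusted p of 0.463, and it was -1.08 within slide 1 and -1.22 without adequate copper rat 5. Ghr, the growth hormone receptor, differed by 0.43 (SE 0.19), by 0.18 within slide 1 and by 0.25 without adequate copper rat 5, which was lowest. Egfr differed by 0.56 (SE 0.22) and by 0.33 within slide 1. The 25 genes of the insulin and growth hormone axis had a median of 0.15 and -0.04 within slide 1.

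Among the genes described, inflammatory ones had the largest differences, towards lower levels in low copper, and they varied strongly between rats. Cxcl1, a chemokine that attracts neutrophils (probe on rn4 chr14:18690468-18690527, minus strand), stood at -2.74, -1.82 and 3.26 in low copper and at 0.97, 2.50 and 3.77 in adequate copper. The 5 low copper rats other than rat 4 lay below all adequate copper rats, and rat 4 lay among them. The difference was -3.38 (SE 1.05), 10.4-fold lower, with a limma adjusted p of 0.463, and it was -2.76 within slide 1 and -4.24 without low copper rat 4.

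Nfkbia, an inhibitor and target of NF-kappaB, differed by -0.75 (SE 0.23) and by -0.71 within slide 1. Il1b, an inflammatory cytokine, differed by -1.003 (SE 0.35), and Il1rn, its receptor antagonist, by -0.74 (SE 0.27), with -0.48 and -0.44 within slide 1. Of the 26 inflammatory cytokine and chemokine genes tested, 24 lay below 0, beside 57.0% of all genes. At unadjusted p under 0.05, where 6.54% of all genes were lower, 8 of the 26 were. The median of -0.55 shrank to -0.0947 within slide 1, where that of all genes was -0.0853. Most of it thus came from the slide 2 rats, against which it was -0.79. Without adequate copper rat 5, which is on slide 2, it was -0.46.

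Acute phase genes lay below 0 in 22 of 27 cases, beside 57.0% of all genes. The median of the list was -0.26, with -0.39 within slide 1, -0.14 with quantile scaling and -0.15 with the authors' values. Lbp, the lipopolysaccharide-binding protein, stood at 1.11, 1.67 and 2.13 in low copper and at 1.96, 2.64 and 4.69 in adequate copper, where rat 5 was highest. Its difference was -1.24 (SE 0.44), with -0.82 within slide 1 and -0.87 without rat 5. Stat3, the transcription factor of the acute phase response, differed by -0.65 (SE 0.22) and by -0.56 within slide 1. The mean level of the acute phase list was 5.24 to 5.53 in low copper and 5.45 to 6.67 in adequate copper, and without rat 5 the median was -0.14.

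Complement genes lay below 0 in 24 of 29 cases, beside 57.0% of all genes. The median of the list was -0.19, with -0.18 within slide 1 and -0.05 without adequate copper rat 5. C5 differed by -0.38 (SE 0.16), and by -0.24 without that rat. Interferon response genes had no common direction, with 20 of 36 above 0 and a median of 0.06 that was -0.0044 with normexp. Ifi44 differed by 0.43 (SE 0.16) and by 0.24 within slide 1. Ifi44l, well above background in 5 low copper rats and 4 adequate copper rats, differed by 0.70 (SE 0.28), by 0.42 within slide 1, by 0.45 without adequate copper rat 5 and by 0.02 with normexp.

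Markers of immune cells differed in the same direction as the inflammatory genes. S100a9, which neutrophils express at high levels, stood at -4.07, -3.50 and -1.44 in low copper and at -2.47, -1.60 and 3.28 in adequate copper. Rat 5 of adequate copper stood 3 or more units above every other rat, and the difference of -2.38 (SE 0.80) became -1.56 without it and -0.88 within slide 1. S100a8, its partner subunit, was added after its values were seen, and differed by -2.47 (SE 0.85), by -0.65 within slide 1 and by -1.54 without rat 5. In tissue such as this, fewer cells of a type and less RNA per cell cannot be told apart.

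Camp, a neutrophil granule gene, differed by -0.91 (SE 0.28) and by -0.92 within slide 1, and Retnlg by -0.89 (SE 0.27) and by -0.40 there. Cxcr2, a receptor for Cxcl1, was well above background in 4 low copper rats and 5 adequate copper rats, and differed by -1.05 (SE 0.32), or -0.25 within slide 1. All 13 neutrophil markers tested lay below 0, beside 57.0% of all genes. All 13 also did within slide 1, where 76.3% of all genes kept their sign. The low copper rats are the same in both, so the slide 1 count is not a separate result. Of the 13, 11 were well above background in all 12 rats. At unadjusted p under 0.05, where 6.54% of all genes were lower, 5 of the markers were. Their median was -0.61, with -0.24 within slide 1 and -0.38 without adequate copper rat 5. The mean level of the list was -3.39 to -2.43 in low copper, -2.90 and -2.64 in the adequate copper rats of slide 1, and up to -0.31 in rat 5. Their part in the inflammatory differences was not tested.

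Cd74, the invariant chain of antigen presentation, did not overlap between diets, at 2.23, 2.70 and 3.32 in low copper and 3.38, 3.47 and 4.17 in adequate copper, a difference of -0.82 (SE 0.33) and -0.66 within slide 1. Cd163, a scavenger receptor of resident macrophages, differed by -0.58 (SE 0.30), or -0.36 without adequate copper rat 5 and -0.26 within slide 1, and Gpnmb by -0.84 (SE 0.34). Beside 57.0% of all genes, 20 of 21 Kupffer cell and macrophage markers lay below 0. Their median was -0.45, with -0.24 within slide 1. Their mean level was -0.58 to 0.22 in low copper and -0.09 to 0.96 in adequate copper.

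Markers of T, B and NK cells lay below 0 for all 20 genes tested, beside 57.0% of all genes. Within slide 1, which uses the same low copper rats, 17 of the 20 kept their sign, beside 76.3% of all genes. Of the 20 markers, 12 were well above background in all 12 rats. Their median was -0.41, with -0.30 within slide 1, -0.29 with quantile scaling, -0.28 with normexp and -0.25 with the authors' values. Cd4 differed by -0.42 (SE 0.16), Il2rb by -0.43 (SE 0.18) and Cd5, well above background in 2 low copper rats and 5 adequate copper rats, by -1.03 (SE 0.33), or -1.92 within slide 1. The mean level of the list was -4.15 to -3.60 in low copper and -3.70 to -3.02 in adequate copper.

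**Figure D3:**
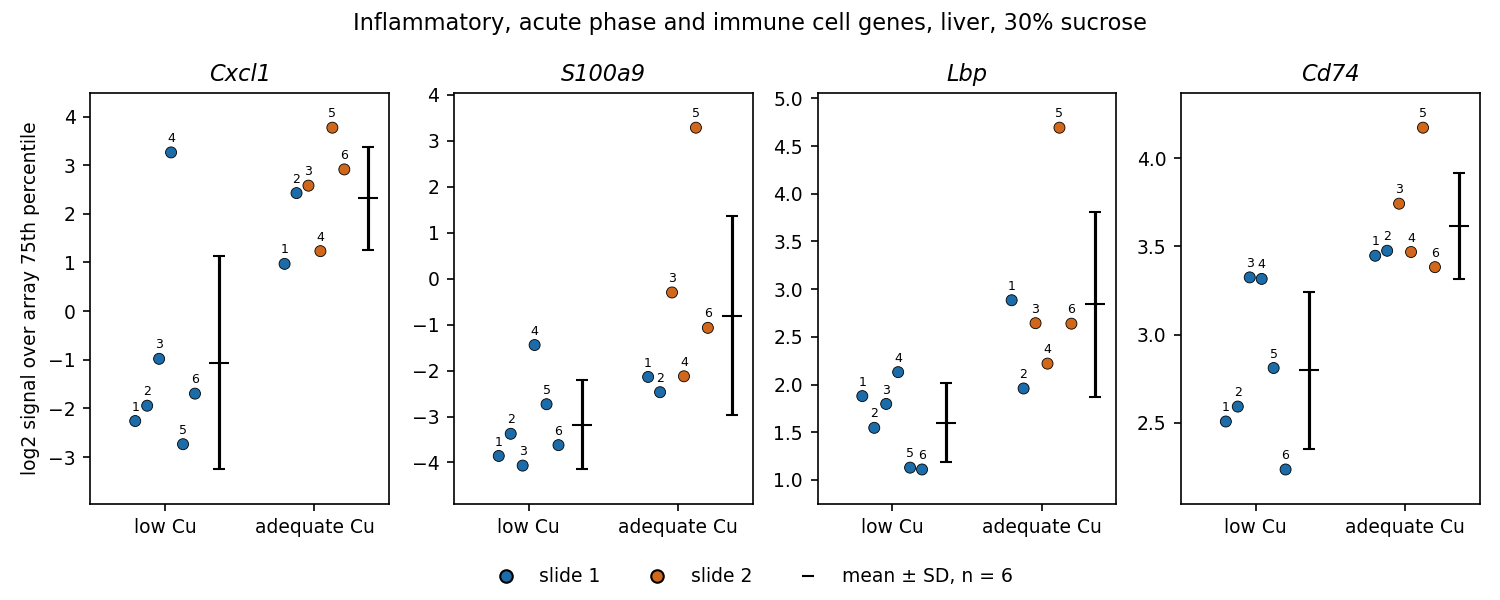
Log2 signal over the array 75th percentile of Cxcl1, S100a9, Lbp and Cd74 in each rat (numbered points, coloured by slide), with mean ± SD of the 6 rats of each diet beside them. Low copper rat 4 stands apart for Cxcl1 at 3.26, and adequate copper rat 5 is highest for S100a9 at 3.28 and for Lbp at 4.69.

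Immediate early genes, which respond fast to stimuli, lay below 0 in 22 of 24 cases, beside 57.0% of all genes. The median of the list was -0.40, with -0.15 within slide 1. Gadd45b differed by -0.69 (SE 0.26) and by -0.21 within slide 1, and Zfp36, which destabilises cytokine messages, by -0.70 (SE 0.28). Among other cell types and processes, 25 of 30 fibrosis and matrix genes lay below 0 with a median of -0.15, but the median was 0.15 within slide 1 and -0.05 without adequate copper rat 5. Col1a1, a fibrillar collagen, differed by -0.44 (SE 0.19) and by -0.49 within slide 1, and by -0.23 as the mean of its probes. The 16 stellate cell markers had a median of -0.15 and the 19 endothelial markers -0.09, both above 0 within slide 1 at 0.09 and 0.17. Without adequate copper rat 5 these medians were -0.06 and 0.01.

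The 19 bile duct and progenitor markers had a median of -0.27, which was -0.05 within slide 1 and -0.16 with quantile scaling or without low copper rat 1, low copper rat 6 or adequate copper rat 6. The 10 red blood cell markers had a median of -0.19, which was -0.30 within slide 1 and 0.08 without adequate copper rat 5. Klf1, a transcription factor of red cell precursors, was well above background in 2 low copper rats and 5 adequate copper rats, and differed by -0.86 (SE 0.20), by -1.48 within slide 1 and by -0.33 with normexp, so its size is uncertain. The 29 genes of endoplasmic reticulum stress had a median of 0.10 that was -0.01 within slide 1, and Chac1, a glutathione-degrading enzyme of that response, differed by -0.63 (SE 0.23). Cell cycle and circadian clock genes both had a median of -0.04, which turned to 0.11 and 0.05 with quantile scaling, and the cell cycle median was -0.18 without adequate copper rat 5 and 0.06 without low copper rat 6.

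**Figure D4:**
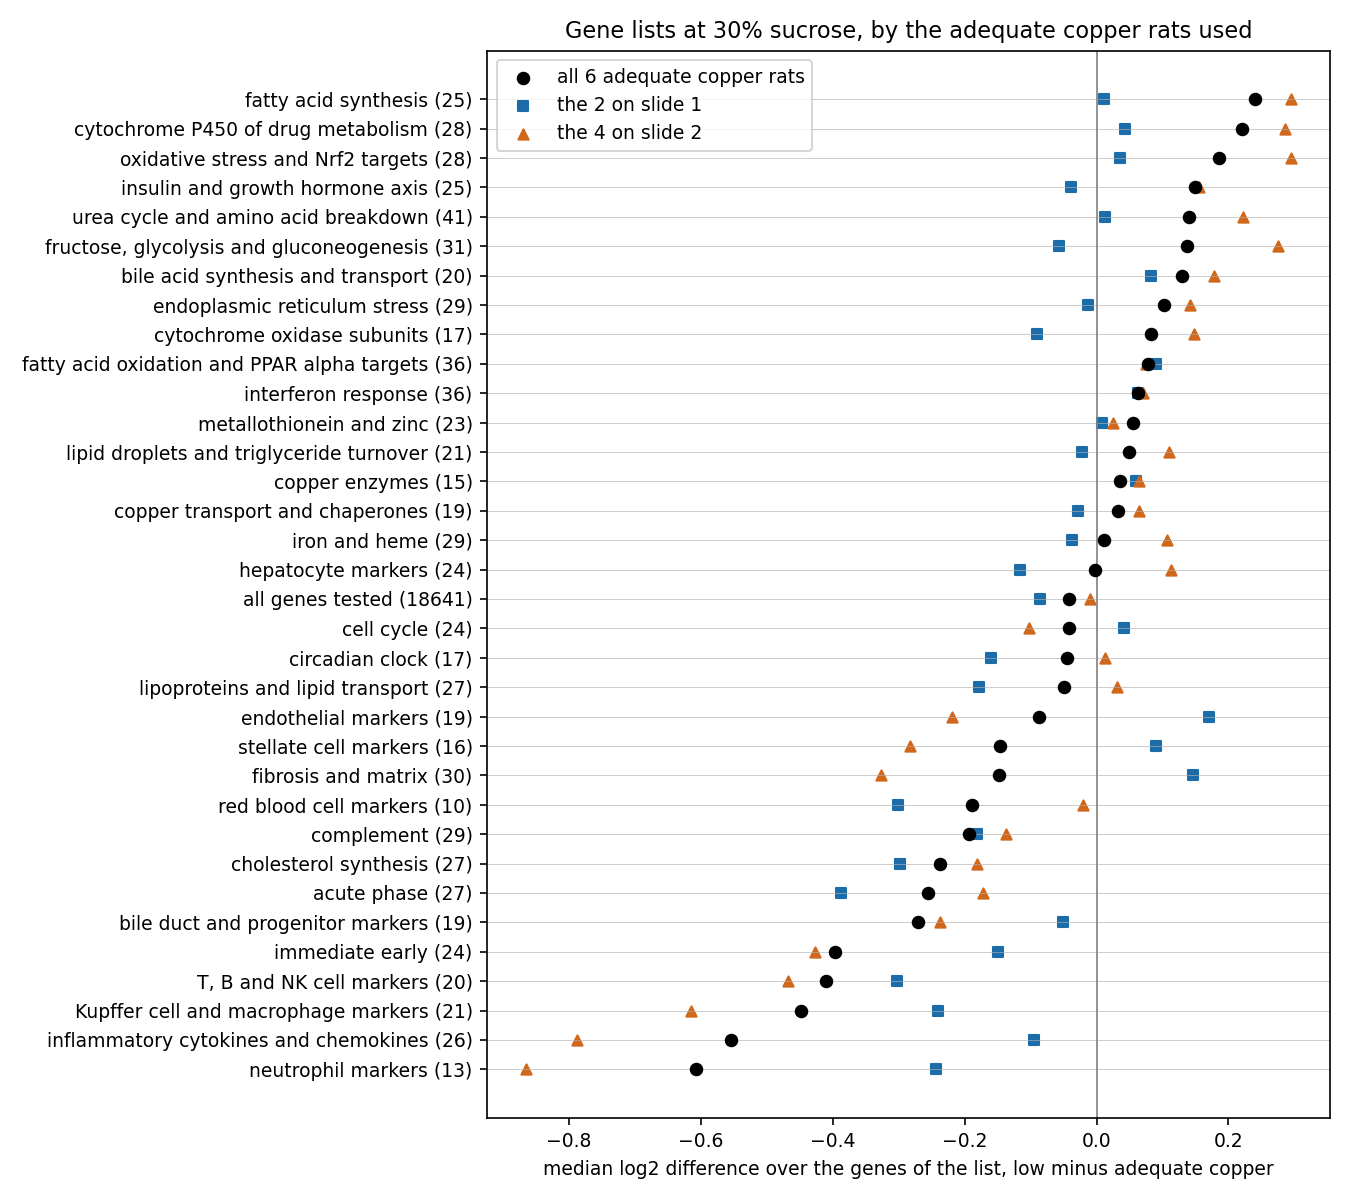
Median log2 difference, low minus adequate copper, over the tested genes of each of 33 gene lists and over all 18641 genes, with the number of genes in brackets. Circles use all 6 adequate copper rats, squares the 2 on slide 1 and triangles the 4 on slide 2; for cholesterol synthesis all 3 values lie below 0, and for fructose, glycolysis and gluconeogenesis the slide 1 value is -0.06 against 0.28 for slide 2.

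Of the 33 lists, 16 had a median above 0 and 17 below. The median had the other sign within slide 1 for 11 lists, and was closer to 0 there for 22. Leaving out 1 rat at a time turned the sign of the median for 8 lists. For single genes, 76.3% of all genes kept the sign of their difference within slide 1, which uses the same 6 low copper rats.

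The genes with the smallest p in each direction were otherwise spread over several functions. Rgn, regucalcin, a calcium-binding protein abundant in liver (probe on rn4 chrX:13037618-13037677, minus strand), stood at 4.38, 4.49 and 4.70 in low copper and at 3.41, 3.89 and 4.24 in adequate copper. The diets did not overlap, and the difference was 0.61 (SE 0.13), 1.52-fold higher, with 0.53 within slide 1 and a limma adjusted p of 0.352. Nudcd2 at 0.55 (SE 0.12) and Prim2, a DNA primase subunit, at 0.42 (SE 0.10) also did not overlap. Mdm2, which targets p53 for degradation, was at -0.40 to 0.38 against -0.87 to -0.45, a difference of 0.51 (SE 0.14), and Ccng1, another known p53 target, differed by 0.69 (SE 0.18) and by 0.44 within slide 1.

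Enpep, an aminopeptidase that acts on angiotensin, had the largest difference of the 15 higher genes at 0.95 (SE 0.22), with 0.62 within slide 1. Letm1 at 0.38 (SE 0.09) and Ppif at 0.43 (SE 0.11), with 0.19 within slide 1, encode mitochondrial proteins, and Clcc1, a chloride channel gene, differed by 0.76 (SE 0.18). The 15 were chosen for their p over the same 12 rats, so nothing is read from the absence of overlap in some of them. Genes named above for their list were picked by p in the same way, so the same holds for their overlap.

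Prm3, a protamine-family gene, had the smallest adjusted p of the named genes, 0.261 in limma (probe on rn4 chr10:4815222-4815281, plus strand). It was dim, at -4.71, -4.55 and -4.35 in low copper and at -4.12, -3.89 and -3.47 in adequate copper, and did not overlap, with a difference of -0.71 (SE 0.14) and -0.76 within slide 1. LOC690206, now 1700013G24Rikl, differed by -0.93 (SE 0.20), Arhgap23, a GTPase-activating protein, by -0.79 (SE 0.17), and Spry2, an inhibitor of growth factor signalling, by -0.84 (SE 0.20), and these 3 did not overlap either. Ermap, an erythroid membrane protein, differed by -0.60 (SE 0.16), also without overlap. Of the 15 lower genes, chosen in the same way, 14 had a mean below 0 in adequate copper. Spry2 was well above background in 4 low copper rats and 5 adequate copper rats.

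The size of several differences depended on the background correction. With normexp the difference was -0.38 for Prm3, -0.56 for LOC690206, -0.35 for Spry2, -0.37 for Ermap and 0.31 for Clcc1. Among genes described earlier it was -0.33 for Cd5, -0.42 for Cxcr2, -0.56 for Retnlg and 0.21 for Slc30a4. With the authors' values, Cd4 differed by -0.21.

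Within slide 1 alone, limma called 0 of 18641 genes (0.0%), with 1302 at unadjusted p under 0.05 and a smallest adjusted p of 0.0606. There, 2.24% of genes were higher in all 6 low copper rats than in both adequate copper rats, and 7.54% were lower. The gene with that smallest adjusted p was Cd177, a neutrophil surface gene. It was not well above background in any of the 6 low copper rats and was so in 3 of the 6 adequate copper rats, so no size is given. Abcg2, an efflux transporter, differed by 1.25 within slide 1 but by 0.09 over all 12 rats, and Rgs4 by 1.33 within slide 1 but by -0.36 over all. With slide as a block in the fit of all 24 arrays, the difference of each gene equals that of slide 1 and its error comes from all diets. That fit called 20 genes (0.107%), all lower in low copper, among them Klf1 at -1.48 (limma adjusted p = 0.0174) and Ankrd29 at -1.22 (limma adjusted p = 0.0398). Over all 12 rats with normexp these 2 differed by -0.33 and -0.36.

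At 10% sucrose the same copper comparison used the other 12 rats, so both comparisons share no rat. Over all genes their differences correlated at -0.59, and at -0.32 when only slides 1 and 3 were used, a description over genes that share arrays and scaling. The difference of the copper differences passed an adjusted p under 0.05 in limma for 3884 genes (20.8%), of which 3523 (18.9%) were lower at 30% than at 10% sucrose and 361 (1.94%) higher. Of the 3884, 3837 had opposite signs at 30% and 10% sucrose. Slide 2 held 4 adequate copper rats of the 30% comparison and 4 low copper rats of the 10% comparison, so an offset of that slide would enter them with opposite signs. With slide as a block 10 genes passed, all lower at 30% sucrose. From slides 1 and 3 only, 3849 of the 3884 genes (99.1%) kept the sign of that difference. These genes were chosen in a fit that holds the same rats, so nothing is read from that share. Both the slide block differences and these signs rest on only 2 adequate copper rats at 30% and 2 low copper rats at 10% sucrose. The other rats in them are the same as in the main fit. The part of slide was not tested beyond these values.

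Cxcl1 differed by -3.38 at 30% and by 1.39 at 10% sucrose, and the difference between these was -4.76 (limma adjusted p = 0.0255). Igfbp1 differed by -1.28 and 0.56, and Sqle by -1.28 and 0.36. Mmp25, a leukocyte membrane protease, differed by -0.46 and 1.28, and its value at 30% was -0.29 with quantile scaling. The metallothionein genes had 1 direction at both sucrose levels: Mt1a differed by -1.34 and -0.89, and Mt2A by -1.53 and -0.84, with differences between these of -0.45 and -0.69 (limma adjusted p = 0.65 and 0.57).

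**Figure D5:**
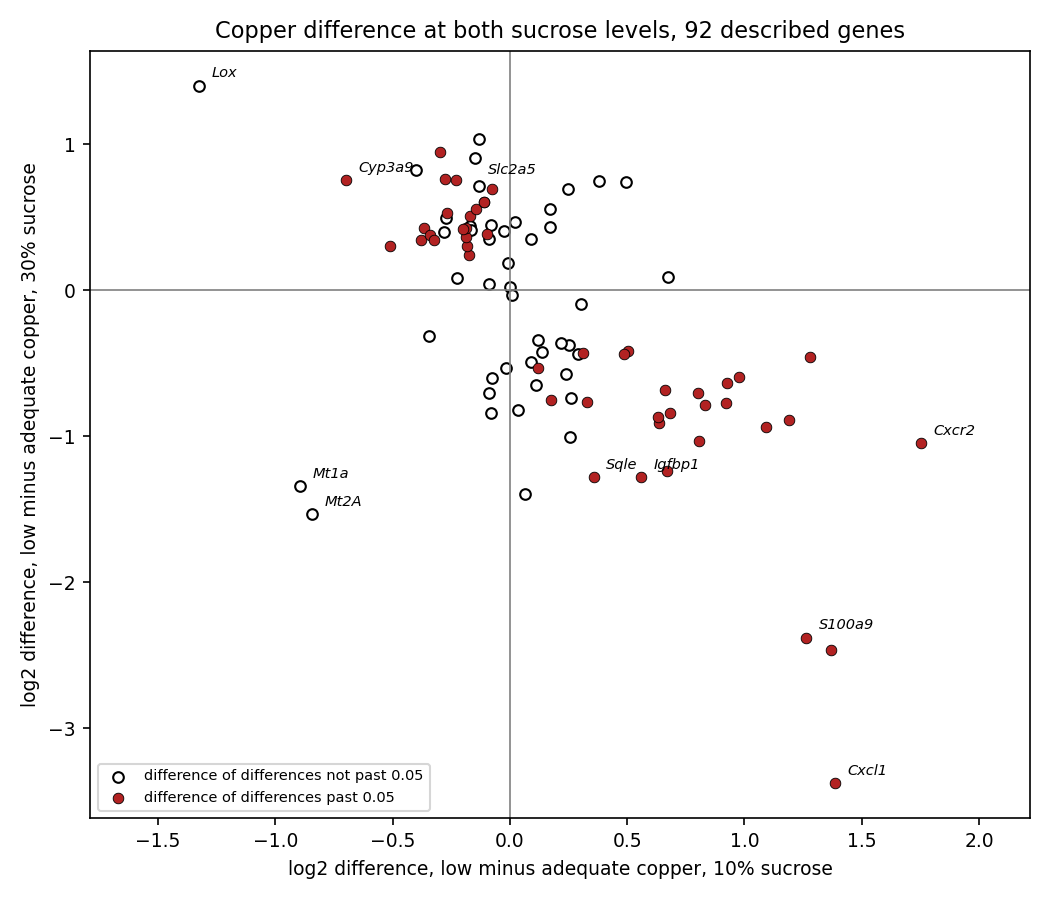
Log2 difference, low minus adequate copper, at 10% sucrose (horizontal) and at 30% sucrose (vertical) for the 92 genes described, 1 point per gene. Filled points passed an adjusted p of 0.05 for the difference between both values; all 47 of them have opposite signs, while Mt1a and Mt2A lie below 0 on both axes.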

How the data were processed

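One-colour arrays of 24 livers were used, 12 of them in the comparison. Per the submitters' processing notes and the file headers the spots were read with Agilent Feature Extraction 10.7.3.1, and probe positions are those of rn4. The processed signal deposited for each spot is an intensity from which the software had removed background and spatial trends, per the file headers, with no scaling across arrays. The authors' value table is a score, quantile-normalized with a median of 0 on every array, whose log scale is not given in the sources used here. The deposited spot marks are of the unit other, and served as marks only.

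Processed signals were put on a log2 scale here, unlike the deposited intensity values, and each array's 75th percentile was subtracted. Spots were averaged per probe without outlier marks, probes well above background on at least 6 arrays were kept, and the brightest probe stood for its gene. limma 3.58.1 (in R 4.3.3) fitted diet means over all 24 arrays with Benjamini-Hochberg adjustment over 18641 genes at 0.05. Every test was two-sided. The fit was also run on simulated data with independent noise and no slide effect. That run cannot speak to slide or to rats that stand apart. Drawings used matplotlib 3.10.9 under python 3.11.15.

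The 15 genes with the smallest p in each direction (any past the threshold first), up to 4 genes per list, 13 fixed genes, and the leaders of slide 1 and of the difference of differences were eligible to be named, 179 genes in all. The text describes 92, S100a8 among them from outside this rule, and a few eligible genes are not reported here. Genes and lists were chosen with earlier results of these data known. Rats are separate animals. Deviations of rats with the same number correlated at -0.29 to 0.36. Rats of unlike number were not compared in this way, so this cannot decide whether numbers pair rats. The main fit did not pair them. Alternatives were quantile scaling, normexp (offset 50), the authors' values, other filters, slide, the replicate block, array weights, probe means, an intensity trend, a change of at least 1.5 times, the 12 rats alone and leaving out each rat. No saturated spot was among the 12 arrays.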

Additional observations from a re-analysis of the deposited data

Results flagged for a closer look

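Values of single rats stood apart from the other 5 of their diet in 17 of 184 groups of 6 rats examined (92 genes, 2 diets), where chance gives about 1 in 20. Of these, 10 were adequate copper rat 5. It was highest for Mt1a (8.25), Mt2A (7.18), Cp (8.50), Il1rn (3.0), Lbp (4.69), Cd163 (1.13), Cd4 (-3.36) and LOC690206 (-2.13), and lowest for Cox5a (4.46) and Ghr (2.11). Low copper rat 4 was highest for Cxcl1 (3.26) and Gadd45b (-1.20). Adequate copper rat 1 was highest for Fasn (6.46) and lowest for Atp7a (-3.79). Low copper rat 3 was lowest for Slc39a5 (-3.90) and highest for Arhgap23 (-3.19), and low copper rat 1 was lowest for Gls2 (5.05).

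For 47 of the 92 genes the copper difference at 30% sucrose differed from that at 10% sucrose, by limma's test of that contrast with adjusted p under 0.05, beside 20.8% of all genes. Some of the 92 were eligible to be named as leaders of this contrast, so nothing is read from their share. With slide as a block 10 of all genes passed. The values below are the difference at 30% minus that at 10%, and the 47 had opposite signs at both sucrose levels, as did 3837 of the 3884 genes that passed. Among immune and inflammatory genes they were Cxcl1 -4.76, S100a8 -3.83, S100a9 -3.64, Cxcr2 -2.80, Retnlg -2.07, Lbp -1.91, Cd5 -1.83, Mmp25 -1.74, Camp -1.54, Nfkbia -0.93, Cd4 -0.92 and Il2rb -0.74. Among metabolic genes they were Igfbp1 -1.84, Sqle -1.64, Idi1 -1.09, Cyp3a9 1.46, Ugp2 0.99, Acot12 0.81, Hao1 0.80, Ghr 0.79, Cpox 0.73, Nags 0.72, Ugdh 0.71, Slc25a13 0.67, Gys2 0.55, Gls2 0.48, Cox5a 0.42 and Slc39a5 -0.65. Other values below 0 were LOC690206 -2.03, Ankrd29 -1.69, Arhgap23 -1.62, Ermap -1.58, Chac1 -1.56, Spry2 -1.52, Prm3 -1.51, Klf1 -1.50, Gadd45b -1.35 and Col1a1 -0.92. Other values above 0 were Enpep 1.25, Clcc1 1.04, Ccng1 0.77, Rgn 0.71, Nudcd2 0.70, Mdm2 0.68, Prim2 0.62, Ppif 0.61 and Letm1 0.48.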

How the results depend on the processing

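The count of 0 called genes held under every setting run except slide as a block (20 genes), including the replicate block (0) and leaving out each rat (0 to 0). Within slide 1 the count of 0 became 1 with quantile scaling, 20 with all 24 arrays and the slide block, 846 without the filter on dim probes (836 of them lower in low copper), and 0 to 1 with each rat left out. The 3884 genes of the difference of differences became 2414 with the authors' table, 2294 with a filter on all arrays, 1808 with slide as a random block, 10 with the slide block, 3925 with the replicate block and 3054 to 4828 with each rat left out. Quantile scaling moved its split from 361 higher and 3523 lower to 1031 higher and 1657 lower; the authors' table gave 781 and 1633.

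Some differences turned sign. With the slide block, which equals slide 1 only, this happened for Ccs (-0.027), Atp7a (0.32), Atp7b (-0.053), Slc31a1 (-0.0091), Khk (-0.12), Scd1 (-0.26), Cyp2c11 (-0.055), Gsta2 (-0.13) and Rgs4 (1.33). Against slide 2 only it happened for Sod1 (0.068) and Abcg2 (-0.48), with slide as a random block for Slc31a1 (-0.0032), and with normexp for Slc31a1 (-0.022) and Abcg2 (-0.034). Sod1 turned with quantile scaling (0.0071) and array weights (0.037), and Atp7b with the mean of probes (-0.052). With each rat left out the ranges crossing 0 were -0.079 to 0.035 for Sod1, -0.25 to 0.029 for Atp7a, -0.021 to 0.085 for Atp7b, -0.040 to 0.077 for Slc31a1, -0.15 to 0.45 for Abcg2 and -0.76 to 0.013 for Rgs4. The cause was not tested. The log2 scale given to the authors' table is an assumption, and dim genes near background are the least certain. Only 2 adequate copper rats shared a slide with the low copper rats, so differences within slide 1 rest on them.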
